A study of Mus musculus with 18 samples.

Results

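CpG methylation of control mouse embryonic stem cells (ESCs) was compared between day 11 and day 9. The question was where methylation fell in cells whose Dnmt1 gene was intact. The paper counts its days after Dnmt1 deletion, and the titles of the control libraries give only the day. The 4 control libraries of these days, 2 per day, were taken from the 18 libraries of the series by their labels. The labels gave these cells as wild-type ESCs of strain E14, but floxed Dnmt1 cells, in which induced Cre removes the gene, were C57BL/6 according to the methods. Whether the controls were untreated floxed cells is therefore unclear. All cells were grown in serum and LIF, with or without feeders, and the labels did not say which. The other control libraries, 5 from days 1, 3 and 6, gave the starting levels, and the 4 Dnmt1 KO libraries of days 9 and 11 served as a comparison.

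DNMT1 copies methylation onto the new DNA strand after replication, DNMT3A and DNMT3B add methylation de novo, and TET enzymes oxidize it. The methylation level of a dividing culture is the balance of these steps. In serum-grown ESCs most CpGs are methylated, and CpG islands are largely free of it. Outside islands CpGs are sparse. In mouse chromosomes the major satellite, a tandem repeat of pericentromeric heterochromatin, is CpG-bearing and heavily methylated, and the genome assembly holds only a few stretches of it, onto which reads from many copies collapse.

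The stretches of sequence to which the clearest exception to the fall belonged are shown here. Each is the 200-base window with the most calls in 1 of 3 repeat tiles described further on, read from the plus strand of the NCBIM37 sequence, with CG in capitals.
chr2:98507231-98507430: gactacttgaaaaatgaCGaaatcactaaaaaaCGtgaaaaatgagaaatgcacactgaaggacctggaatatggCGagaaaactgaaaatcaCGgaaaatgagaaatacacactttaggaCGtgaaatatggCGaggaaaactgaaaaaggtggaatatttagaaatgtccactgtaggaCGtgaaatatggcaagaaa
chr9:3024379-3024578: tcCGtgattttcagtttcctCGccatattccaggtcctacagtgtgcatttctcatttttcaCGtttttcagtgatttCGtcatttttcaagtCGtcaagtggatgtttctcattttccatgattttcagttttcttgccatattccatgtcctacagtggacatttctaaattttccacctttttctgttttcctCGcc
chr9:35112986-35113185: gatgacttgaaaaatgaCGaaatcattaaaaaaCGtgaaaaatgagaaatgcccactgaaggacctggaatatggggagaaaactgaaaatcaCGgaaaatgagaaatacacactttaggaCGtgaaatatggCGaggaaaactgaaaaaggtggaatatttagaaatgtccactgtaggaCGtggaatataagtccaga
The chromosome 2 window and the distal chromosome 9 window shared 132 of 180 words of 12 bases, on either strand. The window near the start of chromosome 9 held 74 of the 180 words of the chromosome 2 window. All read as copies of the major satellite, a name given here from general knowledge of that repeat, since no repeat annotation was used.

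The 4 libraries held between 9192387 and 10142985 calls, each call being a read over a CpG scored as methylated or unmethylated, at 1.23 to 1.24 calls per listed cytosine. Single CpGs were therefore not compared, and calls were summed. In the mitochondrial genome 0.417% to 0.452% of CpG calls were methylated, which bounds unconverted cytosine. A stretch of Dnmt1 with 39 CpGs (chromosome 9, 20744012 to 20745971) was chosen because no Dnmt1 KO library had calls in it from day 3 on. In control it held 20 and 11 calls at day 9 and 25 and 8 calls at day 11, so this part of Dnmt1 was present in all 4 libraries. Counts this small cannot tell a wholly intact culture from a partly deleted or mixed one.

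Methylation fell genome-wide between the days. At day 9 the autosomal CpG methylation level, the percent of calls that were methylated, was 77.7% and 76.0%, and at day 11 it was 71.4% and 71.5%. The mean fell by 5.41 percentage points, from 76.8% ± 1.22 to 71.4% ± 0.049 (SD, n = 2 each). Day 9 replicates lay 1.72 points apart, and the nearest libraries of the different days lay 4.52 points apart. Both day 11 libraries were also below all 5 earlier control libraries, which ranged from 74.8% to 79.0%. With 2 libraries against 2, a two-sided exact permutation test cannot go below p = 0.333, the value obtained here, so levels and classes of CpGs are given without further p-values. The series design names the replicates as biological, without saying what was kept separate.

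**Figure D1:**
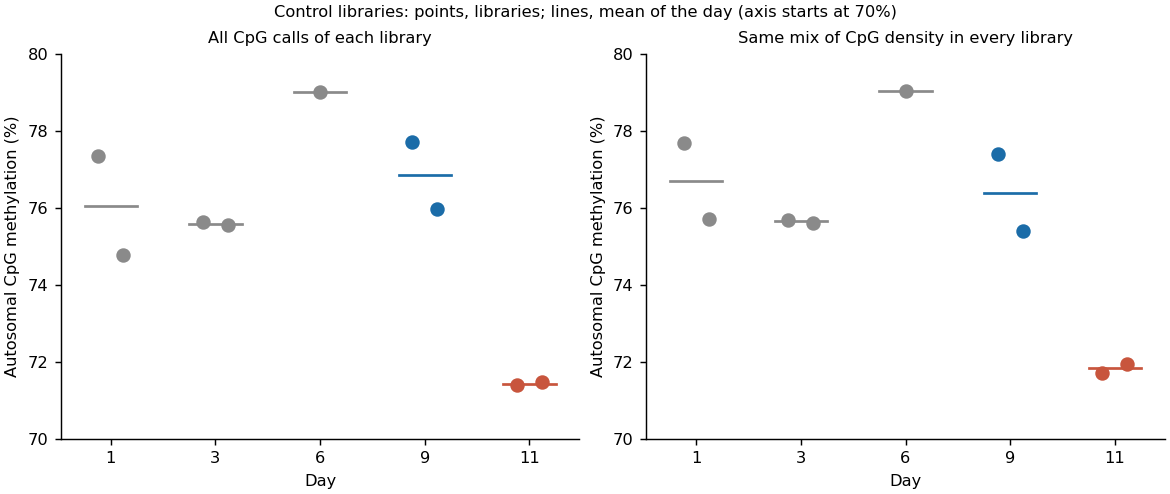
Autosomal CpG methylation (%, axis from 70%) of the 9 control libraries by day, as points with lines at the mean of each day. The left panel uses all calls and the right panel gives every library the same mix of CpG densities. Both day 11 libraries lie below every earlier library in both panels, at 71.4% and 71.5% on the left and 71.7% and 71.9% on the right.

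The mix of CpGs that was read differed between the days, and this moved with the fall. Local density was the count of CpGs in the window reaching 250 bp to each side of a CpG. A CpG was called sparse with a count under 10, dense with 25 or more, as in CpG islands, and intermediate otherwise. Dense CpGs made up 3.97% and 3.53% of calls at day 9 but 4.81% and 5.03% at day 11. With the same density mix in every library the levels were 77.4% and 75.4% at day 9 and 71.7% and 71.9% at day 11, a fall by 4.57 points. A further comparison used only the 420900 of 20364700 autosomal CpGs that were covered in all 4 libraries, each counted once. Coverage thus selected this set, in which 10778 CpGs were dense, against 1432685 of all autosomal CpGs. In the CpGs of this set the levels were 77.1% and 74.9% at day 9 and 71.8% and 72.0% at day 11, and the mean fell by 4.04 points. The groups stayed apart in all 3 comparisons.

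Methylation fell in sparse and intermediate CpGs and least, in points, in dense CpGs. Sparse CpGs, which took 71.0% to 72.7% of calls, stood at 82.2% and 79.96% at day 9 and at 76.4% and 76.7% at day 11, a change of -4.59 points. Intermediate CpGs went from 75.4% and 73.8% to 69.6% and 69.7%, a change of -4.97 points, which became -6.49 points without the 3 repeat tiles. Dense CpGs were at 8.37% and 8.98% at day 9 and at 6.75% and 6.60% at day 11. In the CpGs covered in all 4 libraries the changes were -4.27 points for sparse, -3.40 points for intermediate and -0.716 points for dense CpGs. Dense CpGs thus took a larger share of calls at day 11, and over matched sites they changed least of the 3 classes in points. Relative to the day 9 level the order differed. Over all calls the changes were -23.0% of that level for dense, -6.67% for intermediate and -5.66% for sparse CpGs. Dense CpGs at days 1, 3 and 6 ranged from 7.65% to 8.13%, below both day 9 libraries. In the CpGs covered in all 4 libraries, dense CpGs went from 6.78% and 6.47% to 5.91% and 5.90%. In log odds (the natural logarithm of methylated over unmethylated) the changes there were -0.122 for dense, -0.147 for intermediate and -0.251 for sparse CpGs.

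Promoters showed how far the choice of CpGs mattered. Over all calls in the 1 kb upstream of transcription starts, the level went from 43.5% and 44.4% to 36.2% and 35.6%, a change of -8.05 points. At days 1, 3 and 6 this level ranged from 38.6% to 42.4%, below both day 9 libraries and above both day 11 libraries. In the promoter CpGs the fall over all calls thus started from a raised day 9. In the 22300 promoter CpGs covered in all 4 libraries it went from 38.9% and 37.8% to 36.1% and 36.4%, a change of -2.13 points. Introns changed by -5.27 points over all calls and by -4.41 points in the same CpGs. Intergenic CpGs changed by -4.73 and -3.98 points, and exons by -4.23 and -3.64 points. Over all calls the exon change became -6.62 points without the 3 repeat tiles and -6.57 points without cytosines over 20 calls, second to promoters among these 4 classes. In none of these classes did the days overlap, and the promoter change was the smallest of the 4 in matched sites.

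By starting level, taken from the control libraries of days 1, 3 and 6 in 2 kb bins, the fall was spread over the whole methylated genome. Bins that started under 20% changed by -1.66 points, from 9.27% and 9.57% to 7.82% and 7.70%. The change was -4.98 points in bins of 20% to 50%, -5.58 in bins of 50% to 70%, -4.77 in bins of 70% to 80%, -3.84 in bins of 80% to 90% and -3.99 in bins of 90% or more. On the log odds scale these 6 changes lay between -0.212 and -0.291 over all calls. In CpGs covered in all 4 libraries the changes were -0.897, -2.85, -4.52, -4.74, -4.24 and -3.91 points in that order, so that bins above 50% moved by more than those below. The log odds changes of these matched CpGs were -0.085, -0.123, -0.200, -0.271, -0.282 and -0.284, and so grew with the starting level. Over all calls in bins of 80% to 90%, sparse CpGs changed by -4.36 points and intermediate CpGs by -2.63 points. The 3 repeat tiles described further on stood at 81.3% to 85.5% in the libraries of days 1, 3 and 6. Bins chosen by their level at day 9 itself gave another picture, with changes from 2.60 to -13.3 points, because the error of day 9 then enters both the choice and the change.

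The fall differed in size with the bases beside a CpG and with its closest neighbours. CpGs flanked by A or T on both sides with no other CpG nearby (here within 35 bp) are the context known for the strongest loss in cells that divide many times. In the CpGs covered in all 4 libraries this context went from 77.2% and 75.2% to 70.9% and 71.6%, a fall by 4.97 points. CpGs without neighbours but with C or G on both sides went from 82.0% and 79.9% to 77.2% and 77.5%, a change of -3.62 points. The contrast between C or G and A or T on both sides was of like direction at every number of neighbours. With 1 or 2 others the changes were -3.23 and -4.35 points, and with 3 or more others -2.01 and -3.46 points. The smallest of these, -2.01, came from 47.4% and 45.5% at day 9 and 44.7% and 44.2% at day 11, so much of it rested on day 9 replicate 1. The log odds changes of the 2 contexts without neighbours were -0.220 and -0.257. In bins that started at 90% or more they were -0.324 and -0.273, so on that scale the order turned there in the matched CpGs. Over all calls in those bins they were -0.279 and -0.289, and the order did not turn. In these classes of neighbours and flanks the days did not overlap. Over all calls, without matching, the order held with 0 others (-4.41 against -5.07 points) but turned with 1 or 2 others (-5.05 points for C or G on both sides against -4.29) and with 3 or more others (-8.01 against -7.90). With 3 or more others and C or G on both sides, day 9 stood at 44.5% and 46.0% over all calls. Days 1, 3 and 6 ranged from 40.4% to 43.3% there, below both. With A or T on both sides day 9 stood at 64.7% and 64.0%, against 61.6% to 64.7% earlier. The differences between contexts were not tested.

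**Figure D2:**
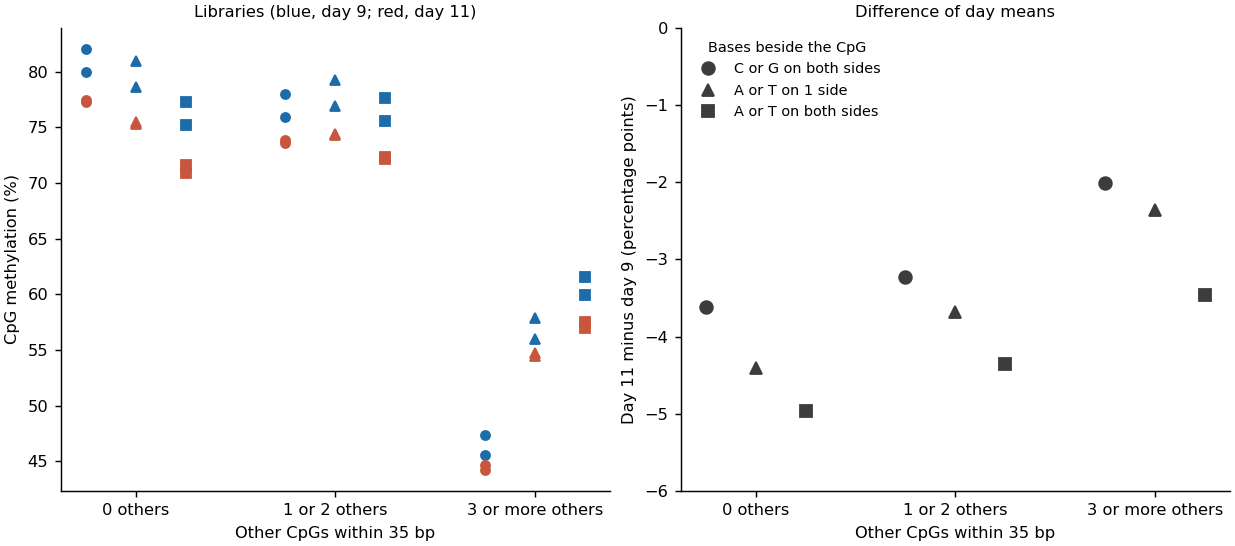
CpGs covered in all 4 control libraries, by the number of other CpGs within 35 bp and by the bases on either side. The left panel gives the methylation (%) of each library and the right panel the day 11 minus day 9 difference of means in percentage points. In all 3 neighbour classes the fall was largest with A or T on both sides, and it was 4.97 points where no other CpG was near.

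In 100 kb tiles the fall was broad rather than patchy. Of 24198 tiles with at least 100 calls in each of the 4 libraries, 21826 (90.2%) were lower at day 11 by the mean, and the median tile fell by 4.62 points. In the middle of the distribution tiles ran from 7.18 to 2.22 points lower (25th and 75th percentiles). Both day 11 libraries were below both day 9 libraries in 13909 tiles (57.5%) and above them in 393 (1.62%). In 1 Mb tiles, which held a median of 3421 calls per library, 2455 of 2457 were lower by the mean, 2283 had both day 11 libraries below both day 9 libraries, and 0 had both above. The larger tiles thus held more calls and overlapped less often.

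**Figure D3:**
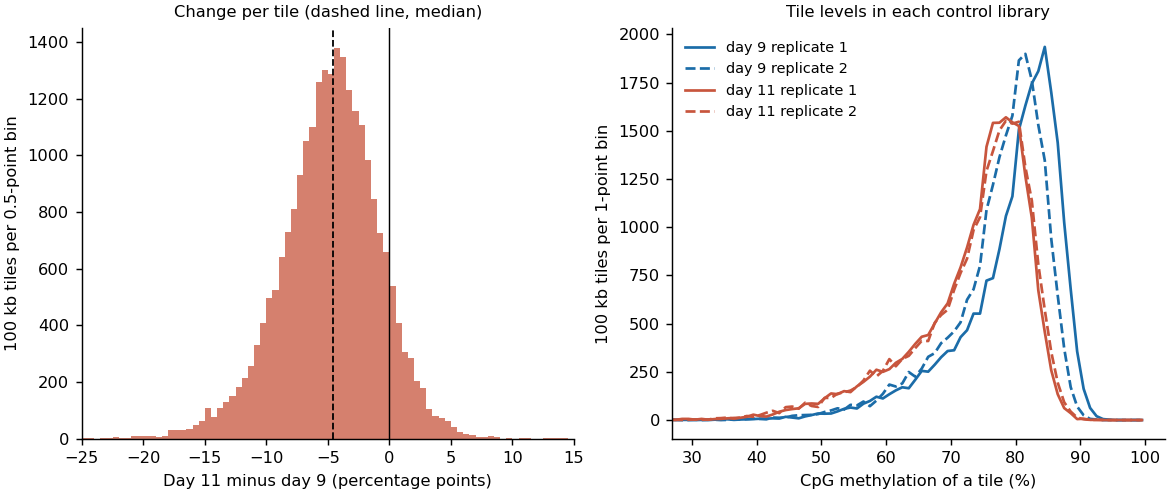
Left, number of 100 kb tiles by their day 11 minus day 9 change in percentage points, with a dashed line at the median of -4.62 and a solid line at 0. Right, number of tiles by CpG methylation (%) in each of the 4 libraries. The whole distribution of both day 11 libraries is shifted to lower levels, and 90.2% of tiles lie left of 0.

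Tiles were tested with a quasi-binomial model of the counts over the 9 control libraries, with 0.05 as the limit of the adjusted p (Benjamini-Hochberg). It called 475 tiles lower (1.96% of those tested) and 0 higher, with 5981 tiles at an unadjusted p under 0.05. In sparse CpGs alone, an alternative added after the data were examined, 2205 of 23975 tiles were called lower (9.2%) and 0 higher. The counts depended on method and library: limma on logit values called 0 tiles (5131 at an unadjusted p under 0.05) and edgeR 94. With day 11 replicate 1 left out 53 were called. With day 9 replicate 1, day 9 replicate 2 or day 11 replicate 2 left out 0 were called, with 2993, 5620 and 4318 at an unadjusted p under 0.05.

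How far single tiles departed from the change of the whole genome was asked with the autosomal level of each library as an offset. No tile was called as falling more (0 of 24198, with an unadjusted p under 0.05 in 1223 tiles of either direction), and 3 were called as falling less (0.0124%). Most lowered tiles were missed in simulated data, so the lack of calls does not show that no tile fell more. The SD of the change over tiles was 3.99 points. Counting error of independent calls would give 2.43 points. Calls from 1 read are not independent, so the true counting error is not known and the excess cannot be read as differences between tiles. Broader tiles did show a shared pattern. Over 2457 tiles of 1 Mb, the change in the replicate 1 pair and in the replicate 2 pair, which share no library, had a Pearson r of 0.408, and the crossed pairs gave 0.414. For 100 kb tiles these were 0.090 and 0.098. The points share base composition and depth, and genes and tiles are not replicates.

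By the difference of means, tiles rich in GC, CpGs and genes fell more than AT-rich tiles with few genes. To keep islands and the mix of sites out of this, it was read in sparse CpGs covered in all 4 libraries. Tiles under 36% GC went from 79.9% and 77.0% to 75.7% and 76.1%, a change of -2.51 points. Tiles of 36% to 38% GC went from 81.5% and 78.8% to 77.2% and 77.5%, a change of -2.77 points. Tiles of 48% GC or more went from 77.2% and 75.4% to 71.3% and 71.7%, a fall by 4.80 points. The classes between these changed by -3.65, -4.24, -4.67 and -4.85 points in order of rising GC. The days did not overlap in any GC class. In each of the 4 pairs of a day 11 and a day 9 library the highest GC class changed more than the lowest, by -5.91 against -4.20, -5.49 against -3.79, -4.10 against -1.23 and -3.69 against -0.82 points. The pairs share libraries, and the difference between classes was not tested.

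The same order held for CpG number and for genes. Tiles with the fewest CpGs went from 79.3% and 76.9% to 75.2% and 75.4%, a change of -2.78 points. Tiles with the most, on 985 CpGs, went from 73.2% and 69.6% to 64.6% and 67.2%, a change of -5.47 points. Without day 9 replicate 1 these changes were -1.56 and -3.65 points. Tiles without a protein-coding gene fell by 3.66 points, from 83.0% and 80.5% to 77.8% and 78.4%. Tiles with 5 to 9 such genes fell by 5.04 points, from 75.8% and 74.4% to 70.1% and 70.03%. GC, CpG number and gene number go together along the genome, and their separate parts were not tested. Tiles holding genes of 12 families ranged from -1.54 points (defensin) to -7.73 points (Hox), beside -4.27 points for all tiles, and in 3 families the days overlapped, these 2 included. Tiles with olfactory receptor genes changed by -4.08 points. Those with vomeronasal receptor genes changed by -3.45 points, from 78.6% and 75.2% to 72.7% and 74.1%. Those with zinc finger genes changed by -5.49 points, from 78.2% and 76.1% to 71.2% and 72.1%. Over all densities the X chromosome changed by -3.72 points in matched CpGs, from 68.3% and 69.0% to 65.02% and 64.8%, within the range of the autosomes (-3.60 to -5.08 points).

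**Figure D4:**
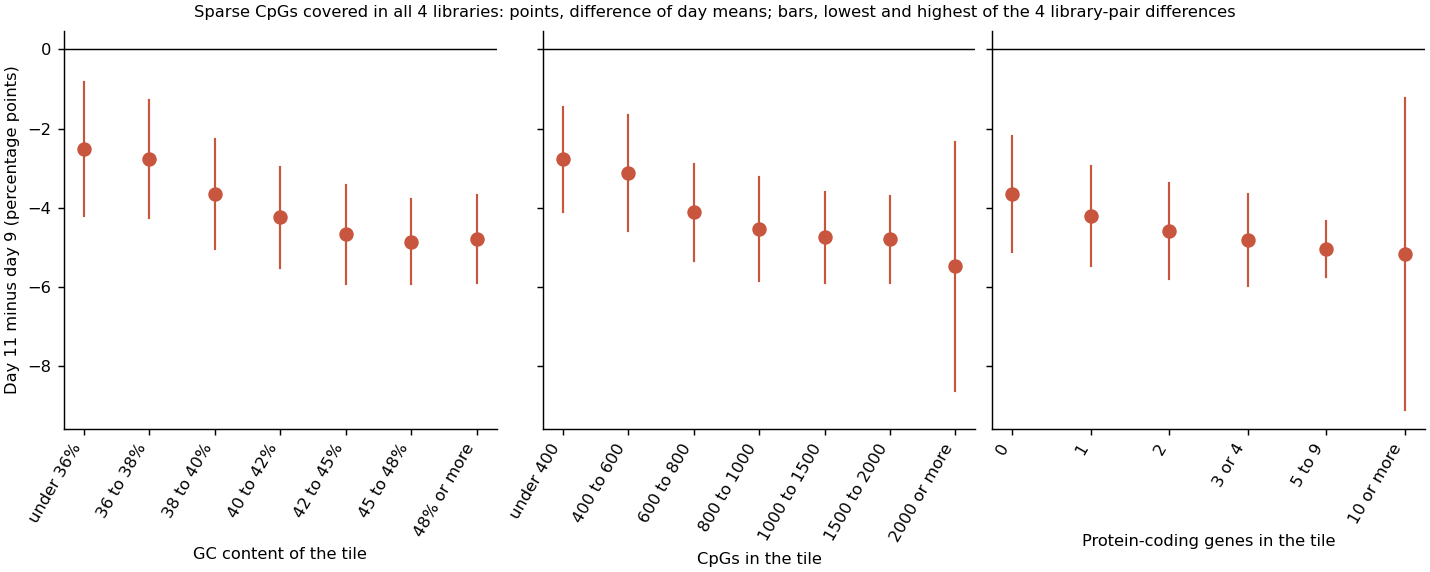
Day 11 minus day 9 change (percentage points) of sparse CpGs covered in all 4 control libraries, by GC content, CpG number and protein-coding genes of their 100 kb tile. Points are differences of day means and bars span the 4 differences between a day 11 and a day 9 library. The change is -2.51 points in tiles under 36% GC and -4.80 points in tiles of 48% or more.

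The 3 tiles that fell less than the genome were the 3 deepest of all and held the satellite sequence shown above. The tile at chromosome 2, 98500001 to 98600000, with the gene models Gm10800 and Gm10801, held at least 431898 calls per library, between 40.3% and 41.98% of all calls of its chromosome. Its level was 84.7% and 83.0% at day 9 and 82.7% and 82.8% at day 11, a fall by 1.12 points. The departure from the genome-wide change was 0.20 in log odds (SE 0.011, quasi-binomial model with limma's moderation, adjusted p = 7.5e-06). The tile at chromosome 9, 3000001 to 3100000, went from 83.6% and 82.0% to 81.86% and 81.87%, a change of -0.937 points (departure 0.22, SE 0.016, adjusted p = 0.000179). The tile at chromosome 9, 35100001 to 35200000, where the annotation has no gene, went from 84.5% and 82.5% to 82.5% and 82.7%, a change of -0.945 points (departure 0.22, SE 0.022, adjusted p = 0.00382). Another offset was the pooled level of tiles of the same starting level, a pool that includes the calls of these deep tiles. With it the departures shrank to 0.12, 0.14 and 0.14 in the same order. The part of the tiles' own calls in this shrinkage was not tested. The distal chromosome 9 tile was then no longer called. That call was also lost with edgeR and without day 9 replicate 2, day 11 replicate 1 or day 11 replicate 2, and limma called none of the 3 tiles (1171 tiles at an unadjusted p under 0.05). In that tile the days overlapped. In the other two both day 11 libraries lay just below day 9 replicate 2.

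The calls rested on depth and on the repeat copies themselves. A departure at least as large was found in 4333 of 24198 tiles (17.9%), and the median SE over all tiles was 0.196. CpGs with a cytosine over 20 calls in any library numbered 62 in the chromosome 2 tile, 481 near the start of chromosome 9 and 10 in the distal tile, and changed by -1.12, -0.915 and -0.893 points. The remaining CpGs changed by -8.11, -3.29 and -5.66 points in the same order, on 180 calls or more per library, and in the chromosome 2 tile the days overlapped. Without the deep cytosines 0 tiles were called (1220 at an unadjusted p under 0.05). Outside the 3 tiles all 647 CpGs over the same limit went from 39.3% and 37.99% to 32.2% and 31.1%, a change of -6.98 points. The 66 of them at 50% or more in days 1, 3 and 6, a class added after the data were examined, went from 81.4% and 78.5% to 78.1% and 78.0%, a fall by 1.93 points. In Dnmt1 KO at days 9 and 11 the 3 tiles stood at 35.6%, 37.96% and 33.0%, against 24.8% for all autosomal CpGs.

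**Figure D5:**
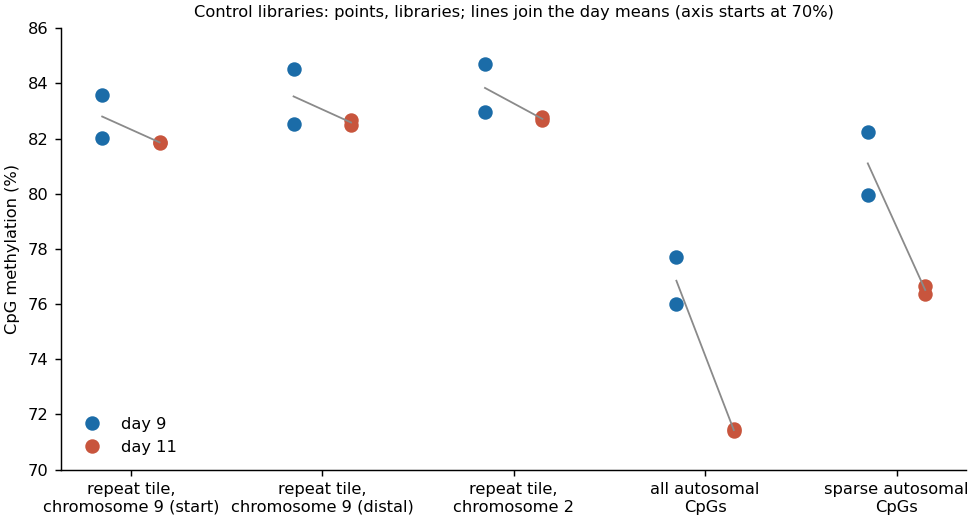
CpG methylation (%, axis from 70%) of the 4 control libraries in the 3 repeat tiles, in all autosomal CpGs and in sparse autosomal CpGs. Points are libraries and lines join the day means. The repeat tiles changed by -0.937 to -1.12 points and all autosomal CpGs by -5.41 points.

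These tiles also set the values of their chromosomes. Over all calls chromosome 2 changed by -3.70 points and chromosome 9 by -4.23 points, the least of the autosomes, and without the 3 tiles by -5.67 and -5.78 points. Chromosome 17 changed by -7.28 points over all calls, the most, but by -4.14 points in the CpGs covered in all 4 libraries. Together the 3 tiles held 6.63% to 7.06% of autosomal and X calls, and without them the autosomal fall was 5.76 points.

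The 3 tiles with the largest downward departures were not called. One was the tile at chromosome 11, 11900001 to 12000000, which overlaps Grb10, an imprinted gene for a growth factor receptor adaptor. It went from 82.8% and 78.2% to 56.0% and 51.9% (departure -0.97, SE 0.17, adjusted p = 0.307). Earlier control libraries ran from 58.2% to 79.7% in it, a wide spread. The other two lay on the X chromosome. The tile at 8800001 to 8900000, with Lancl3 and Xk, fell by 24.6 points on 137 to 250 calls, and the tile at 162800001 to 162900000, with Gpm6b, Ofd1 and Rab9, fell by 23.3 points on 149 to 205 calls. In sparse CpGs the 3 changes were -7.96, -16.2 and -2.93 points in the same order, and in the Gpm6b tile the days then overlapped.

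Gene bodies gave few calls at this depth. Of 13772 gene bodies with at least 50 calls in each library, 10 were called lower (0.0726%) and 0 higher, and both day 11 libraries were below both day 9 libraries in 49.5%. The median gene body fell by 5.52 points. In sparse CpGs 1233 of 10732 were called lower (11.5%), with a median change of -4.87 points. With day 9 replicate 1 or 2 left out 3 were called each, with day 11 replicate 1 left out 4 and with day 11 replicate 2 left out 5. limma on logit values called 0, with 1771 at an unadjusted p under 0.05. The calls include the genome-wide fall: with the autosomal level as offset 0 gene bodies were called as falling more, with 669 of either direction at an unadjusted p under 0.05. No call named here as lower was kept with the offset or with limma, and the calls of Grb10, Tex14, Magi2 and 2610528E23Rik were lost without any 1 of the 4 libraries.

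Grb10 was the only called gene of the 26 tested in the imprinted list (against 0.0726% of all gene bodies), and in sparse CpGs 4 of 22 were called (against 11.5%). Its body (ENSMUSG00000020176.10, chromosome 11, 11830511 to 11938686) went from 84.9% and 80.1% to 60.48% and 55.4%, and the log odds change was -1.23 (SE 0.21, adjusted p = 0.0339). At days 1, 3 and 6 it ranged from 64.5% to 79.3%, below both day 9 libraries and above both day 11 libraries. In sparse CpGs it went from 86.8% and 82.2% to 75.8% and 72.8% (adjusted p = 0.00753). Over the whole imprinted list 13 of 26 tested genes had both day 11 libraries below both day 9 libraries and 24 were lower by the mean, with a median change of -5.78 points, beside -5.52 for all gene bodies. Of all 13772 gene bodies 49.5% had both day 11 libraries below and 11603 were lower by the mean. The promoters of the list were erratic, at 43.6% and 33.1% at day 9 and 19.7% and 36.4% at day 11, and the days overlapped.

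Fgfr2, a fibroblast growth factor receptor in the trophoblast list, was called on a gene model of 3.01 Mb that spans 32 other protein-coding genes, so its value describes that whole stretch. It went from 76.8% and 75.9% to 68.6% and 69.4% (log odds change -0.37, SE 0.039, adjusted p = 0.000199), and the other 10 tested genes of the list were not called (against 0.0726% of all gene bodies). In 4 of the 11 both day 11 libraries were below both day 9 libraries (against 49.5%), and in sparse CpGs 1 of 4 was called (against 11.5%). Magi2, a synaptic scaffold gene of 1.48 Mb, went from 83.3% and 81.9% to 77.1% and 76.4% (log odds change -0.37, SE 0.065, adjusted p = 0.0424). It was the only called gene among 30 long neural adhesion and fragile site genes (against 0.0726% of all gene bodies). All 30 were lower by the mean, and in 23 both day 11 libraries were below both day 9 libraries, against 49.5% of all gene bodies. Their median fall, 3.47 points, was smaller than the 5.52 points of all genes. In sparse CpGs 19 of the 30 were called, against 11.5% of all. These genes held a median of 10188 calls over the 4 libraries, against 712 for all gene bodies, and the part of depth in their calls was not tested.

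Another 3 of the called genes were picked after their values were seen. Fam49b went from 81.8% and 78.4% to 59.4% and 54.0% (adjusted p = 0.00467), and fell by 12.7 points in sparse CpGs. Tex14, a gene of germ cell intercellular bridges, went from 66.0% and 68.4% to 52.2% and 48.02% (adjusted p = 0.0424), and fell by 7.49 points in sparse CpGs. Filip1l went from 58.8% and 56.8% to 39.3% and 41.5% (adjusted p = 0.00402), but its change in sparse CpGs was -2.11 points, where it was not called. It overlaps 2610528E23Rik, which was called with an overlapping stretch of calls and changed by -2.47 points in sparse CpGs, where it was not called. At days 1, 3 and 6 Filip1l ranged from 43.4% to 54.0% and 2610528E23Rik from 48.1% to 58.2%, below both day 9 libraries. Fam49b (71.3% to 85.5%) and Tex14 (60.2% to 68.7%) had their day 9 levels within the earlier range.

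The genes that write, copy and remove methylation were not called, at a background of 0.0726% of all gene bodies. Of 24 such genes 21 were tested, 17 were lower by the mean, 7 had both day 11 libraries below both day 9 libraries (against 49.5% of all gene bodies), and the median change was -6.22 points. Dnmt3a, a de novo methyltransferase, stood at 65.6% and 64.3% at day 9 and at 58.7% and 57.1% at day 11 (adjusted p = 0.283). Tet1, which oxidizes methylated cytosine, stood at 56.3% and 47.7% at day 9 and at 49.2% and 49.1% at day 11, with overlapping days, below its range of 59.4% to 71.2% at days 1, 3 and 6. Dnmt1 itself stood at 61.0% and 74.3% at day 9 and at 73.4% and 61.6% at day 11 (adjusted p = 0.935), and the days overlapped.

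Pluripotency genes gave no call over all CpGs. In 10 tested gene bodies the median fall was 5.77 points, 5 had both day 11 libraries below both day 9 libraries and 0 were called. Both counts are near the background of all gene bodies, 49.5% and 0.0726%. Esrrb, a nuclear receptor of the pluripotency network, stood at 59.1% and 60.7% at day 9 and at 54.3% and 48.9% at day 11 (adjusted p = 0.187), and was 1 of 2 called among 6 tested in sparse CpGs (against 11.5% of all), with a fall of 8.37 points (adjusted p = 0.0190). Jarid2, a Polycomb cofactor, stood at 44.4% and 46.7% at day 9 and at 38.5% and 43.7% at day 11. Promoters of the pluripotency list stayed low, at 16.8% and 15.4% at day 9 and 14.96% and 12.6% at day 11. In the same terms promoters of all protein-coding genes went from 35.8% and 37.1% to 29.6% and 29.4%.

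The remaining lists gave no call over all CpGs, against 0.0726% of all gene bodies, whose median change was -5.52 points. Germline genes that are silenced by promoter methylation (14 tested) had a median fall of 5.23 points, with Tdrd9 at 83.9% and 79.9% at day 9 and at 76.1% and 79.7% at day 11, and Mov10l1 at 87.7% and 88.8% at day 9 and at 82.7% and 81.5% at day 11. In sparse CpGs the germline list had a median change of -2.87 points, beside -4.87 for all gene bodies. None of its 13 genes tested there was called (against 11.5% of all). Promoters of this list stood at 67.3% and 57.4% at day 9 and at 63.6% and 56.1% at day 11, with overlapping days. Germ layer genes (12 tested) had a median change of -3.62 points, with Pax7 at 60% and 60.9% at day 9 and at 53.8% and 52.2% at day 11, and Pax3 at 72.1% and 77.9% at day 9 and at 73.2% and 72.4% at day 11. Housekeeping genes (20 tested) had a median change of -6.76 points, with Xrcc5 at 87.2% and 83.0% at day 9 and at 72.7% and 78.4% at day 11, and Cltc at 73.3% and 66.2% at day 9 and at 69.7% and 66.8% at day 11. In sparse CpGs 2 of 9 tested housekeeping genes were called (against 11.5% of all). Housekeeping promoters stayed near unmethylated, at 5.52% and 6.20% at day 9 and at 8.08% and 5.16% at day 11.

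Markers of fibroblasts, the cell type of feeders, were read as a check of cell mixture. Methylation gives no expression, so only levels can be compared. The 9 tested gene bodies had a median change of -5.08 points, with Fn1 at 79.0% and 74.8% at day 9 and at 73.4% and 69.5% at day 11, and Prrx1 at 79.9% and 76.1% at day 9 and at 63.0% and 68.3% at day 11 (adjusted p = 0.172, and 0.0110 in sparse CpGs). The 9 changes ran from -12.3 to 8.44 points, and in 2 of the 9 both day 11 libraries were below both day 9 libraries (against 49.5% of all gene bodies). In sparse CpGs the median change of 7 tested was -1.86 points, beside -4.87 for all gene bodies, and 1 was called (against 11.5%). The 12 promoters of the list stood at 28.4% and 12.7% at day 9 and at 36.6% and 13.1% at day 11, on 82 to 137 calls, with more spread within a day than between days. The share of calls on chromosome 8 also moved with the days, from 6.25% and 6.21% at day 9 to 5.91% and 5.97% at day 11. Its ratio of day 11 to day 9 was 0.954, and those of the other chromosomes ran from 0.992 to 1.016. In matched CpGs chromosome 8 changed by -3.98 points, within the range of the other autosomes. The part of the cell mix in the fall was not tested.

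In Dnmt1 KO the same interval brought no clear fall. Their autosomal level was 24.5% and 25.6% at day 9 and 24.2% and 24.7% at day 11, and the days overlapped. The difference between the control change and the Dnmt1 KO change was tested per tile in 1 model over the 18 libraries, on the log odds scale. It called 0 of 23806 tiles (0%), with an unadjusted p under 0.05 in 3265. In sparse CpGs 97 of 23423 tiles were called (0.414%), all with control falling more than Dnmt1 KO. Over all autosomal calls, whose density mix differed between the days, the control fall amounted to 10.4% of the gap between control at day 9 and Dnmt1 KO at days 9 and 11. In sparse CpGs it amounted to 8.12%.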

How the data were processed

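Whole-genome bisulfite sequencing of control ESCs at days 9 and 11 was analysed, with other control and Dnmt1 KO libraries as reference. According to the methods, the authors trimmed paired reads, aligned them with Bismark to NCBIM37, removed duplicates and extracted CpG calls. The labels name Bismark 0.12.3, and the methods another version. The deposited tables hold counts of methylated and of unmethylated calls per cytosine, with no normalization, and a deposited percent computed from them, of which only the counts were used. Coordinates are NCBIM37 with GENCODE models of that build. Cytosines outside a CpG (0.109% to 0.116%) were left out and both strands added up.

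Levels are methylated calls over all calls. Tiles of 100 kb (at least 100 calls in each of the 4 libraries) and gene bodies (at least 50) were fitted in Python 3.11.15 with a quasi-binomial model, 1 level per day over the 9 control libraries, with the dispersion moderated in R 4.3.3 by limma 3.58.1. Calls were made at a Benjamini-Hochberg adjusted p under 0.05. The interaction used all 18 libraries, with the lone day 6 libraries assumed to vary like the others. edgeR 4.0.16 and limma on logit values (0.5 added to each count) were alternatives. P-values measure the spread between these libraries. Intervals of single calls are not given, because calls from 1 read are not independent.

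The fits were tested on simulated data. Most tiles lowered there were missed, with and without the offset, at the smaller and at the larger simulated fall alike. With the offset, the share of false calls among all calls was above the nominal limit. The simulated genome-wide fall was equal in points in all tiles, while the offset acts in log odds. The part of this mismatch in the false calls was not tested. Named tiles were the 6 largest of each direction called with the offset, or the 3 largest departures where fewer than 3 were called. Named genes were the called members of each list, at most 4, or else the 2 with the most calls, and Dnmt1. The comparison, lists and families were chosen with earlier results of these data known. Gene families were described by their tiles. The reference sequence carried no repeat marking, so a repeat class was not used here.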

Additional observations from a re-analysis of the deposited data

How the results depend on the processing

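Every level and density or starting-level class fell at day 11 when 1 library was left out. The ranges of the change, in points, were -6.28 to -4.55 for the autosomal level, -5.73 to -3.45 for sparse, -5.77 to -4.18 for intermediate and -2.31 to -1.69 for dense CpGs. In the order of rising starting level they were -1.81 to -1.51, -5.20 to -4.75, -6.60 to -4.57, -5.88 to -3.66, -4.96 to -2.72 and -5.16 to -2.83. In CpGs covered in all 4 libraries, added after the data were examined, the changes were -4.04 for the autosomes, -3.40 for intermediate and -0.716 for dense CpGs, -0.897 for bins under 20% and -2.85 for bins of 20% to 50%. With each covered CpG counted once the last was -4.57. Intermediate CpGs changed by -6.49 without the repeat tiles, by -6.48 without cytosines over 20 calls and by -6.21 with density limits of 15 and 30, where dense CpGs changed by -0.918. With the starting level from day 9 the changes were 0.981, -1.39, 2.60, 0.0208 and -13.3 for bins under 20%, of 20% to 50%, 50% to 70%, 70% to 80% and 90% or more. The selection on day 9 builds this in.

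Tiles called lower numbered 0 with tiles of 50 kb (6114 at an unadjusted p under 0.05), 2178 with 200 kb, 2094 with all 18 libraries, 912 with only the 4 libraries, 0 with limma, 94 with edgeR, 2205 in sparse CpGs, and 0 to 53 with 1 library left out. Of the tile departures, 7 were called with all 18 libraries (4 of them lower), 0 with limma (1171 at an unadjusted p under 0.05), 0 without cytosines over 20 calls and 2 to 3 with 1 library left out. Control against Dnmt1 KO gave 6 calls with at least 50 calls, 97 in sparse CpGs and 0 to 3 with 1 library left out. Gene bodies called numbered 60 with at least 100 calls, 0 with limma, 519 with all 18 libraries, 4 with the offset (all falling less), 1233 in sparse CpGs and 3 to 5 with 1 library left out. Causes of these shifts were not tested.

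With the replicate block, 646 tiles and 7 gene bodies were called lower, 3 tiles departed, 0 differed from Dnmt1 KO, and the autosomal same-numbered differences were -6.31 and -4.52 (mean -5.41). Deviations of same-numbered libraries did not go together over 24198 tiles (r = -0.0089). In 100 kb tiles even the change between days gave an r of only 0.090 between same-numbered pairs, so this check cannot exclude pairing. Among named items, departures turned without cytosines over 20 calls in the distal chromosome 9 tile (-0.071) and the chromosome 2 tile (-0.24), and in sparse CpGs in the Gpm6b tile (0.092). With 1 library left out the change ranged from -5.10 to 2.01 for Cltc, from -6.82 to 6.53 for Dnmt1 (5.76 without day 11 replicate 2), from -5.10 to 0.710 for Pax3 and from -7.15 to 1.46 for Tet1. For the 6 tiles named by the rule direction and call were kept in 70 alternatives, the call was lost in 9 and gained in 0, and the direction turned in 3. For the 16 genes named by the rule these counts were 137, 15, 3 and 5. At about 330 calls per tile and library, counting error would give a tile change an SD of 2.43 points if calls were independent, which they are not.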

Other observations

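Among the 4 gene bodies called with the genome-wide offset, all falling less, were Gm10800 on chromosome 2 and Gm16869, Gm10722 and Gm10718 near the start of chromosome 9, models that lie in the satellite stretches. Gm10800 stood at 84.8% at day 9 and 83.9% at day 11 (mean of 2 libraries each).

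Tiles were also grouped by their level in Dnmt1 KO at days 9 and 11. In sparse CpGs covered in all 4 control libraries control changed by -3.63 points where the Dnmt1 KO level was under 18%, by -4.71 points at 25% to 28% and by -4.30 points at 32% or more. The days did not overlap in any of these groups.

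Neighbouring 100 kb tiles changed together weakly, with a Pearson r of 0.142 over 23917 pairs, while the difference between the day 9 replicates gave 0.000035. The points share local sequence and depth.

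Among deep tiles other than the 3 repeat tiles, the tile with the ribosomal DNA model AY036118 (chromosome 17, 39900001 to 40000000) stood at 7.05% and 6.99% at day 9 and at 6.30% and 5.14% at day 11. The tile at chromosome 12, 3100001 to 3200000, stood at 84.5% and 82.0% at day 9 and at 82.3% and 81.8% at day 11, a change of -1.202 points. Its departure from the genome-wide change was 0.19 in log odds and was not called (quasi-binomial model, adjusted p = 0.819). Whether this tile holds the satellite sequence was not examined. Both tiles were picked after their values were seen.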
